A study of Mus musculus with 7 samples.

Results

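The immunoglobulin heavy chain variable (Ighv) segments were taken as every gene of the deposited table that is annotated with the biotype IG_V_gene and named Ighv, which gave 113 of the 54532 genes. All 113 lie on the minus strand of chromosome 12, between positions 113578504 and 116000461 (mm10). RNA had been sequenced from cells of mouse spleen sorted by flow cytometry for GFP in IL-17GFP/+ mice, in which GFP reports the IL-17 locus, and the cells are labelled Th17 T helper cells. All 7 libraries share this reporter genotype, tissue and sort. The health group, with 4 libraries numbered 1 to 4, had no ligature. The periodontitis group, with 3 libraries numbered 2 to 4 after their library names, carried a silk ligature on the first molars of the lower jaw, left and right, a procedure that inflames the gum. Age, sex and the time of ligature are not given in the labels used here, nor is it said whether libraries came from separate mice. All p-values therefore rest on the spread among libraries, which may be technical. Xist, the RNA of the inactive X chromosome, stood at 52.1 to 72.5 FPKM in health and 0.135 to 1.35 FPKM in periodontitis, and 4 Y-linked genes summed to 0 FPKM in every health library and 27.6 to 42.6 FPKM in periodontitis. The sex of the mice and periodontitis therefore cannot be told apart below.

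An Ighv segment encodes most of the variable domain of an antibody heavy chain. In a developing B cell a single Ighv segment is joined to a D and a J segment, and the daughters of that cell keep the choice, so the mix of segments in a sample reflects which B cell and plasma cell clones it holds. A plasma cell contains far more antibody RNA than a resting B cell, so few plasma cells can set much of the mix. T cells do not assemble complete heavy chain genes. Spleen holds many B cells beside T cells and macrophages.

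The last 120 bases of the most used segment of each library are shown, since this end holds the conserved codons before the joint to the D segment. They are transcript sequences of GENCODE M21 (GRCm38), 5′ to 3′ on the coding strand. Capitals mark TANTNNTGT, where N is any base. In the printed ends it encodes tyrosine, then tyrosine or phenylalanine, then the cysteine that closes the third framework region. All are on the minus strand: Ighv8-12 (chr12:115647945-115648387) led health 1, Ighv1-9 (chr12:114583569-114584002) health 2, Ighv1-64 (chr12:115507545-115508031) health 3 and Ighv9-3 (chr12:114140692-114141122) health 4. Periodontitis 2 and 3 were both led by Ighv2-9 (chr12:113879096-113879541), and periodontitis 4 by Ighv3-6 (chr12:114288152-114288582).
Ighv8-12: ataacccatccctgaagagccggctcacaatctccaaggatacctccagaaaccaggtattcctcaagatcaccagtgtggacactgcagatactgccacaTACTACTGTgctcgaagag
Ighv1-9: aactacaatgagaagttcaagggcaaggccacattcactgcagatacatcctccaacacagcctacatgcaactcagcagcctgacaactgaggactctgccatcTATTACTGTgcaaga
Ighv1-64: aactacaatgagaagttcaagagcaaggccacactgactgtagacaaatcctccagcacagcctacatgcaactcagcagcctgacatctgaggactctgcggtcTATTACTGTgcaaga
Ighv9-3: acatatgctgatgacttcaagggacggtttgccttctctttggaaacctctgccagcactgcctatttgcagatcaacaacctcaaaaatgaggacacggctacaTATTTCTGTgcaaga
Ighv2-9: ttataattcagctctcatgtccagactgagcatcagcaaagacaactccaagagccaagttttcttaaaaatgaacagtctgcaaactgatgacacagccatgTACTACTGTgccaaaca
Ighv3-6: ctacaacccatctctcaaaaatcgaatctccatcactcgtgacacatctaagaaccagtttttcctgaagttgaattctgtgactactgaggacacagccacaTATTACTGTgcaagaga
Searched on the coding strand only, the motif was found in the last 30 bases of 107 of the 113 segments, or 94.7%, against 0.763% of the 141485 transcripts of other genes. The printed ends of Ighv1-9 and Ighv1-64, both of family 1, differ at 10 of 120 bases, and those of Ighv1-9 and Ighv9-3 at 41. Such likeness of ends does not by itself show that reads cannot be told apart, so shared stretches of 50 bases were counted. Of the 113 segments, 20 share no stretch of 50 bases with another Ighv transcript and 15 share over 50% of theirs. The share was 20.8% for Ighv2-9, 3.32% for Ighv3-6 and 0.662% for Ighv1-9. It was 92.5% for Ighv1-72, 67.2% for Ighv1-52, 55.4% for Ighv2-2, 52.3% for Ighv11-1 and 52.2% for Ighv1-50, whose levels are uncertain for that reason. Among other segments named below it was 49.0% for Ighv1-26 and 40.4% for Ighv1-69.

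Ighv RNA was present in every library of these sorted cells. Levels are in FPKM, a count of fragments divided by gene length and by library size, and each can be turned back into whole reads. The libraries held 13513806 to 17891393 reads in all. Of these, 32757, 20934, 18346 and 33538 fell on Ighv segments in the health libraries, in number order, and 46055, 33996 and 82793 in the periodontitis libraries. These were 0.121% to 0.237% of all reads in health and 0.275%, 0.227% and 0.613% in periodontitis. The T cell gene Cd3e, a chain of the receptor complex, was 4.30 to 15.9 FPKM in health and 64.3 to 90.6 FPKM in periodontitis, and Il17a was 0 to 3.76 FPKM and 136 to 362 FPKM. Health 2 and 4 held no read of Il17a.

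Periodontitis 2 and periodontitis 3 stood apart from every other pair of libraries in Ighv usage. Usage is the share that each segment takes of a library's summed Ighv FPKM, and shared usage is the sum over segments of the smaller of the 2 libraries' shares. It was 90.8% for periodontitis 2 and 3. For the other 20 pairs it ran from 56.1% to 76.3%, and it was 67.9% and 68.9% for periodontitis 4 with periodontitis 2 and 3. Across the 101 segments with a read in any library, Spearman's rho was 0.969 for this pair and 0.615 to 0.852 for the others, as a description. The points share their libraries and the rho carries no p.

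The likeness of this pair held segment by segment. Of 56 segments with at least 100 reads in both, 54 lay within 2-fold of the median ratio of 1.51 between periodontitis 2 and 3. That is 96.4%, against 50% to 77.8% in the other pairs. They had 8 of their 10 leading segments in common, where other pairs had 1 to 7. Only 9 segments had 10 reads in just 1 of these 2 libraries, where other pairs had 12 to 26 such segments. The chi-square per degree of freedom for Ighv reads was 17.8 for this pair and 71.8 to 266 in the others. It takes reads as independent, which they are not, and it grows with their number. Whether the pair differed by more than sampling noise therefore cannot be read from it.

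The same pair was alike within the family Ighv1 and outside it, with a shared usage of 91.1% and 90.5%. Variable segments of the kappa light chain, counted separately, gave 92.6% for this pair and 59.9% to 74.9% for the others. Those of the alpha and beta T cell receptor chains gave 78.1%, against 40.5% to 70.6%, but their rho of 0.777 was just below the 0.779 of health 1 with periodontitis 3. Their chi-square per degree of freedom was 14.0 for the pair and 37.6 and 59.2 for periodontitis 4 with either. It was 5.45 to 9.95 within health and 5.78 to 37.4 between groups. This measure grows with the number of reads, so its values for libraries of unlike read number do not rank likeness. The measures differed for protein-coding genes outside the receptor loci. Their shared usage was 74.5% for periodontitis 2 and 3, 84.3% for periodontitis 3 and 4, and 78.3% to 91.2% within health. Spearman's rho over these genes was 0.943 for periodontitis 2 and 3, above periodontitis 4 with either (0.883 and 0.911) and below all pairs within health (0.957 to 0.972). The 8 heavy chain constant genes did not set the pair apart, with a shared usage of 94.5% for periodontitis 2 and 3 and 94.6% for periodontitis 2 and 4. Among them Ighe, the constant region of IgE, was 18.0 and 19.7 FPKM in periodontitis 2 and 3, 0 in periodontitis 4 and at most 4.98 FPKM in health. Whether periodontitis 2 and 3 share mice or cells was not tested, and results below are also given with their mean counted as 1 sample where that changes a call.

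**Figure D1:**
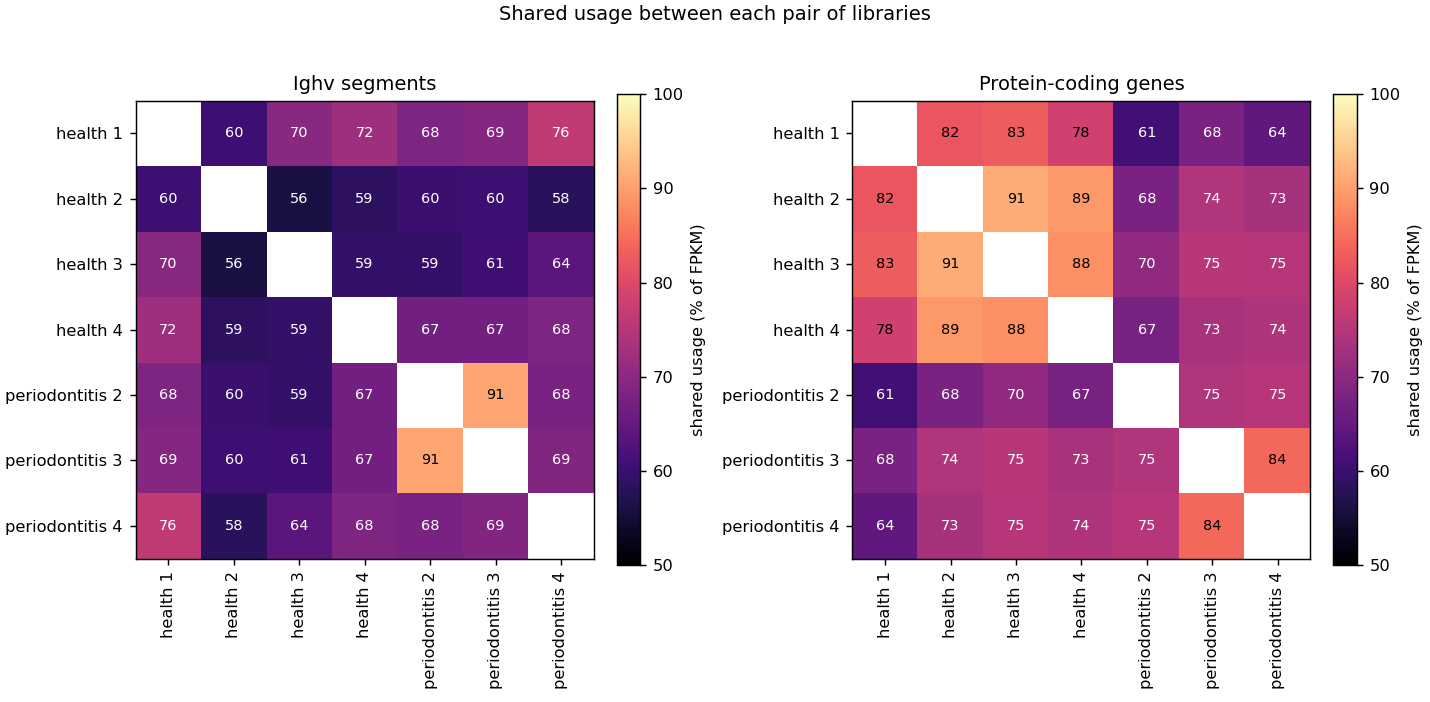
Shared usage, in percent of FPKM, for each pair of the 7 libraries, over Ighv segments (left) and protein-coding genes outside the receptor loci (right). Periodontitis 2 and 3 share 90.8% of Ighv usage, above the other 20 pairs (56.1% to 76.3%), but 74.5% over protein-coding genes.

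The summed Ighv level was higher on average in periodontitis, but the groups overlapped. It was 5391, 3389, 3134 and 6241 FPKM in health 1 to 4 and 8445, 5513 and 15945 FPKM in periodontitis 2 to 4. Periodontitis 3 lay below health 4, and periodontitis 4 was the highest library by far. The means were 4539 ± 1519 (SD, n = 4) and 9967 ± 5380 FPKM (SD, n = 3). On the log2 scale the difference was 1.06 (95% interval -0.15 to 2.27; exact permutation p = 0.114, two-sided). With 4 libraries against 3 the smallest such p is 0.0571, so no test of this kind here can pass 0.05. In bulk RNA, more cells that express Ighv segments and more Ighv RNA per cell cannot be told apart.

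The sums of the heavy chain constant regions and of the plasma cell genes were also highest in periodontitis 4, and that of the B cell genes was not. The 8 heavy chain constant genes summed to 3022 to 4458 FPKM in the health group and 9331, 4924 and 15172 FPKM in periodontitis 2 to 4, so their groups did not overlap. The ratio of summed variable to summed constant FPKM was 1.66, 1.12, 0.865 and 1.40 in health and 0.905, 1.12 and 1.05 in periodontitis. The 15 plasma cell genes summed to 586 to 846 FPKM in health and 914 to 2701 FPKM in periodontitis. In periodontitis 4 Jchain alone made up 1982 FPKM of that sum. Not every plasma cell gene was highest there. Sec11c peaked in periodontitis 2 and Prdm1 in periodontitis 3. The 16 genes of B cell identity summed to 436 to 1016 FPKM in health and 606 to 1050 FPKM in periodontitis. How far the number of plasma cells accounts for the Ighv level was not tested.

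Usage was spread over many segments in all 7 libraries. The effective number of segments, the exponential of the Shannon entropy of the shares, is the number of equally used segments that would give the same entropy. It was 54.0, 44.4, 49.7 and 51.5 in the health libraries 1 to 4 and 49.98, 48.3 and 52.3 in the periodontitis libraries 2 to 4. The health and periodontitis ranges overlapped fully, with means of 49.9 ± 4.06 and 50.2 ± 2.02 and a difference of 0.29 (95% interval -6.36 to 6.95; exact permutation p = 0.971, two-sided). The sign of this small difference turned to -1.54 without health 2 and to -0.77 without periodontitis 4. Between 13 and 16 segments made up 50% of the usage in each health library, and between 14 and 16 in each periodontitis library.

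No segment took more than 9.14% of any library. The most used segment took 5.83%, 7.94%, 6.51% and 6.22% in the health libraries 1 to 4 and 7.86%, 9.14% and 5.76% in the periodontitis libraries 2 to 4. The difference of the means was 0.96 percentage points (95% interval -1.58 to 3.503; exact permutation p = 0.514, two-sided). It was 0.185 without periodontitis 3, 1.88 without periodontitis 4 and 0.439 with periodontitis 2 and 3 as 1 sample. The 10 leading segments together took 36.2% to 43.7% in health and 36.9% to 39.8% in periodontitis.

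**Figure D2:**
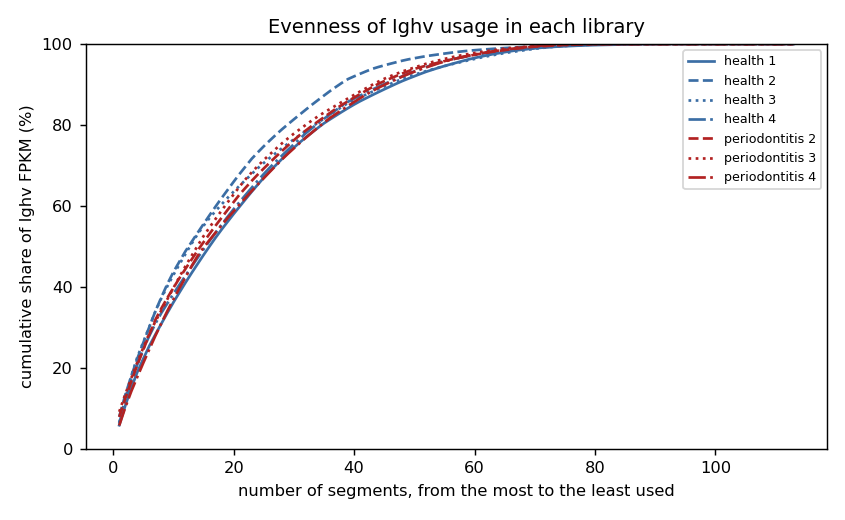
Cumulative share of Ighv FPKM, in percent, against the number of segments taken from the most to the least used, with a line for each library (health blue, periodontitis red). The lines run close together, with 13 to 16 segments reaching 50% in every library, and health 2, with the lowest effective number (44.4), lies highest beyond about 20 segments.

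Fewer segments were detected in periodontitis, although more Ighv reads were counted there. At least 1 read was found for 94, 84, 88 and 88 segments in health 1 to 4 and for 83, 83 and 77 in periodontitis 2 to 4. At an equal depth of 18346 Ighv reads, the number in health 3, the expected numbers were 92.9, 83.9, 88.0 and 87.7 in health and 82.6, 82.5 and 76.2 in periodontitis. Every periodontitis library was below every health library. The difference was -7.66 segments (95% interval -14.9 to -0.43), with an exact permutation p of 0.0571, two-sided, the smallest possible here, and of 0.190 when adjusted over the 5 measures of Ighv level and usage tested in this way. With periodontitis 2 and 3 as 1 sample the difference was -6.66 segments (exact permutation p = 0.267, two-sided). At least 10 reads were found for 78 to 85 segments in health and 76 to 80 in periodontitis, and these ranges overlapped. Over the whole table, 16852 to 19721 genes had a read in health and 12226 to 17546 in periodontitis. The part of that in the segment counts was not tested.

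Of the 113 segments, 12 had no read in any library, among them Ighv11-1, Ighv7-2 and Ighv16-1. A further 4 had reads but fewer than 10 in every library. At least 10 reads were found in all 7 libraries for 57 segments and in 1 to 6 libraries for 40. Ighv15-2, the only member of its family, had 54 reads in health 3 and none elsewhere. Ighv7-4 had 8, 12, 204 and 115 reads in health 1 to 4 and none in periodontitis. For the 57 segments found everywhere, the highest health library exceeded the lowest by a median of 5.27-fold, and by between 1.61-fold and 39.7-fold. Libraries of the same group thus differed widely in single segments.

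**Figure D3:**
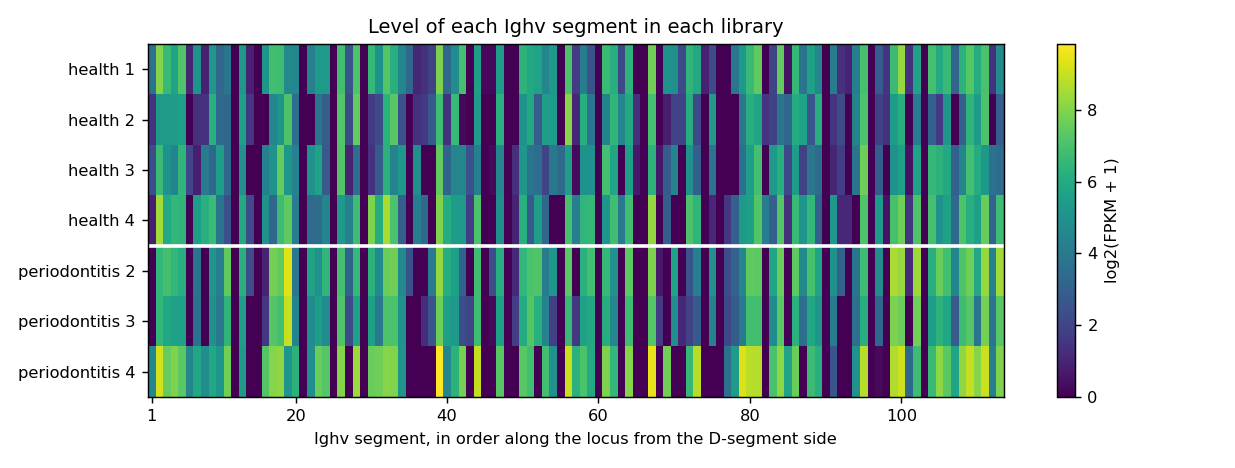
Level of each of the 113 Ighv segments, as log2(FPKM + 1), in each of the 7 libraries, in order along the locus from the side of the D segments. Rows of periodontitis 2 and 3 look alike, and the 12 segments without a read are dark in every row.

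The leading segments differed from library to library, and few were high in all. The 3 most used segments of each library came to 15 different segments. Ighv3-6 was among the 10 leading segments of all 7 libraries. Its share was 4.38%, 3.28%, 5.69% and 3.95% in the health libraries 1 to 4 and 3.65%, 3.65% and 5.76% in the periodontitis libraries 2 to 4. The mean level was 193 ± 62.2 FPKM in the health group and 476 ± 387 FPKM in the periodontitis group, and the difference did not pass (log2 value 1.06, SE 0.53; limma adjusted p = 0.218). Ighv1-26 was among the leading 10 of 6 libraries, with 81.9 to 304 FPKM in the health group and 240, 151 and 706 FPKM in periodontitis 2 to 4. Its groups overlapped.

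Ighv2-9 was the most used segment of periodontitis 2 and 3 and took 0.215% of usage in periodontitis 4. Its level was 23.8, 134, 35.5 and 166 FPKM in health 1 to 4 and 664, 504 and 34.3 FPKM in periodontitis 2 to 4. Periodontitis 4 lay within the health range, and the segment did not pass (log2 value 1.76, SE 1.08; limma adjusted p = 0.311). Without periodontitis 4 its log2 value was 3.11 and its limma adjusted p 0.0467, but that fit holds only the alike pair as its periodontitis group. With periodontitis 2 and 3 as 1 sample the log2 value of Ighv2-9 was 1.09 and its limma adjusted p 0.565. Over 15 settings its adjusted p ran from 0.0467 to 0.608. Ighv1-50 was the reverse, with 637 FPKM in periodontitis 4, 21.6 and 15.7 FPKM in periodontitis 2 and 3, and 11.2 to 40.5 FPKM in health. Its log2 value was 1.41 with all libraries and -0.27 without periodontitis 4.

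The leading segment differed among the 4 health libraries. Ighv1-9 took 7.94% of usage in health 2 and 1.42% to 2.45% in the other health libraries. Ighv9-3 took 6.22% in health 4 and 2.25% to 2.70% in the others. Ighv1-64 took 6.51% in health 3, where it stood at 204 FPKM, with 126 to 138 FPKM in health 1, 2 and 4. Ighv8-12 led health 1 with 314 FPKM and was 68.3, 46.7 and 202 FPKM in health 2 to 4 and 318, 194 and 554 FPKM in periodontitis 2 to 4. Ighv2-2 was high in health 1 and 4 and in periodontitis 4, with 259, 360 and 569 FPKM, and 40.3 to 103 FPKM in the other 4 libraries. Ighv14-3 and Ighv7-3 took 5.34% and 4.64% in health 2 and 0.348% and 0.641% in health 3, and Ighv5-17 took 5.83% in health 3 and 1.04% in health 2. Ighv1-82, which took 3.99% in periodontitis 3, was 37.2 to 187 FPKM in the health group and 314, 220 and 536 FPKM in periodontitis 2 to 4. Its groups did not overlap, but it missed the threshold (log2 value 1.66, SE 0.55; limma adjusted p = 0.0808).

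**Figure D4:**
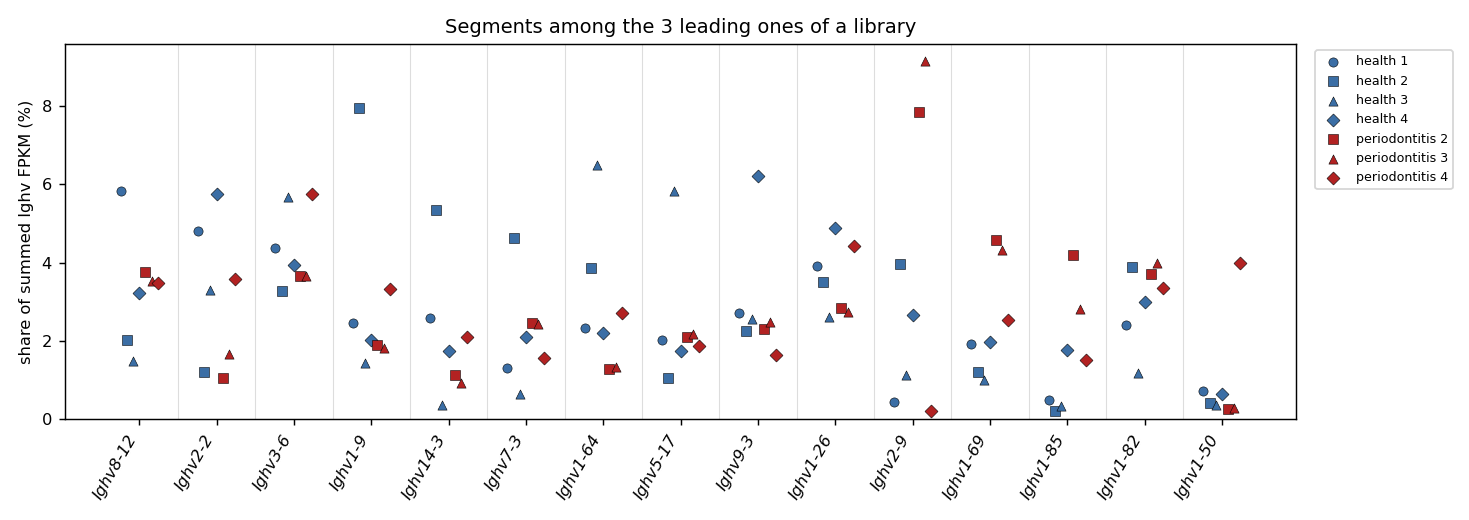
Share of summed Ighv FPKM, in percent, of the 15 segments that are among the 3 leading ones of any library, with a point for each library (health blue, periodontitis red, the marker giving the library number). Ighv3-6 lies between 3.28% and 5.76% in all libraries, while Ighv2-9 reaches 9.14% in periodontitis 3 and 0.215% in periodontitis 4.

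Of the 113 segments, 93 passed the filter of a mean of at least 1 FPKM and were tested together with all other genes (limma, two-sided, on log2(FPKM + 1), with Benjamini-Hochberg adjustment over 12999 genes). Higher levels in periodontitis were called at an adjusted p under 0.05 for 6 segments, or 6.45% of those tested, where 5.63% of all genes tested were called higher. No segment was called lower, where 10.2% of all genes were, and limma voom on the recovered reads called 9 higher and also none lower; 3 of the 20 segments with an unadjusted p under 0.05 had lower levels. The share called higher is near that of all genes. All periodontitis libraries were above all health libraries for 11 of the 93 segments (11.8%; 12.6% of all genes) and below them for 1 (1.08%; 17.2% of all genes), which was Ighv7-4. The median log2 value of the 93 was 0.90, against -0.06 over all genes tested, and 0.52 without periodontitis 4; 72 of the 93 values were positive.

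The count of 6 moved with single libraries and settings. It was 8 without features under 200 bases and 7 without health 4. With periodontitis 2 and 3 as 1 sample it was 4, and at a pseudocount of 0.1 or with quantile normalization it was 5. With no filter on low values 2 were called. The count was 3, 2 and 3 without health 1, 2 and 3 and 2 without periodontitis 2 or 4. With each library scaled to the same total, 5 segments were called higher and 2 lower. Under that scaling the median log2 value over all genes shifted by -0.38. It shifted by -0.15 when features under 200 bases were left out of the total, and by 0.12 with quantile normalization. The median of the segments lay 0.74 to 0.94 above that of all genes under these 3 scalings and 0.96 above it as deposited.

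Ighv5-9-1, a segment of family 5 on the side of the D segments, had the largest log2 fold change of the 6 as deposited. Ighv1-49 exceeded it at a pseudocount of 0.1 (4.69 against 4.15) and with voom (4.84 against 4.12), and Ighv1-85 without health 4 (4.17 against 3.73). Ighv5-9-1 lies at chr12:113736111-113736630 and was 13.6, 8.77, 8.86 and 4.29 FPKM in health 1 to 4 and 172, 86.0 and 216 FPKM in periodontitis 2 to 4. All 3 periodontitis libraries lay far above the health range. The log2 fold change was 3.999 (SE 0.41, limma adjusted p = 0.000841), and its call held in all 15 settings without a replicate block (adjusted p 0.000102 to 0.00624). Its share of usage was 0.0687% to 0.283% in health and 2.04%, 1.56% and 1.35% in periodontitis.

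Ighv1-69 was 104, 41.1, 31.3 and 124 FPKM in health 1 to 4 and 387, 238 and 405 FPKM in periodontitis 2 to 4. The groups did not overlap, and the log2 fold change was 2.37 (SE 0.50, limma adjusted p = 0.0150). Leaving out health 2, periodontitis 2 or periodontitis 4 ended the call, at an adjusted p of 0.0540, 0.0530 and 0.0533; across the settings it ran from 0.00432 to 0.0540. Its share of usage was 0.998% to 1.98% in health and 4.58%, 4.32% and 2.54% in periodontitis.

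Ighv1-85, the segment farthest from the D segments, was 25.6, 6.77, 10.2 and 110 FPKM in health 1 to 4 and 354, 155 and 242 FPKM in periodontitis 2 to 4. Its log2 fold change was 3.40 (SE 0.83, limma adjusted p = 0.0256). The call was lost without any single library other than health 4. It was also lost with no filter on low values (limma adjusted p = 0.0702) and with periodontitis 2 and 3 as 1 sample (limma adjusted p = 0.0563). Across the settings the adjusted p ran from 0.00403 to 0.0920. In the health libraries Ighv5-16 was 114, 22.5, 32.5 and 9.15 FPKM, and in the periodontitis libraries 220, 146 and 267 FPKM (log2 fold change 2.73, SE 0.70; limma adjusted p = 0.0331). Its call was lost without any single library other than health 1. With no filter (limma adjusted p = 0.0824) and with periodontitis 2 and 3 as 1 sample (limma adjusted p = 0.0655) it was lost as well. Across the settings the adjusted p ran from 0.00555 to 0.0999.

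Ighv1-52 stood at 99.2, 72.8, 44.9 and 46.6 FPKM in the 4 health libraries and at 174, 115 and 455 FPKM after ligature, of which periodontitis 3 was close to health 1. Its log2 fold change was 1.73 (SE 0.49; limma adjusted p = 0.0453), a call lost without any single library other than periodontitis 3 (range 0.0304 to 0.122). It was also lost at a pseudocount of 0.1, with no filter, at the same total and with quantile normalization (adjusted p 0.0505, 0.0991, 0.0799 and 0.0546). Ighv1-61 carries 57.6% of its 50-base stretches, so reads may be split between them. Ighv1-49 was scarce, with 0, 0, 0 and 10 reads in health and 21, 20 and 57 reads in periodontitis. Its level was at most 1.94 FPKM in the health group and 4.03, 3.39 and 11.5 FPKM in periodontitis (log2 fold change 2.31, SE 0.53; limma adjusted p = 0.0211). Its mean met the filter of 1 FPKM only through the periodontitis libraries. With no filter on low values Ighv1-49 was not called (limma adjusted p = 0.0588). It was no longer called when health 1, 2 or 3 or periodontitis 4 was left out, at an adjusted p of 0.0611, 0.0655, 0.0617 and 0.0538, within 0.0112 to 0.0655 across the settings. Ighv3-3 had the largest unadjusted p of the segments tested, with a log2 value of -0.02.

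**Figure D5:**
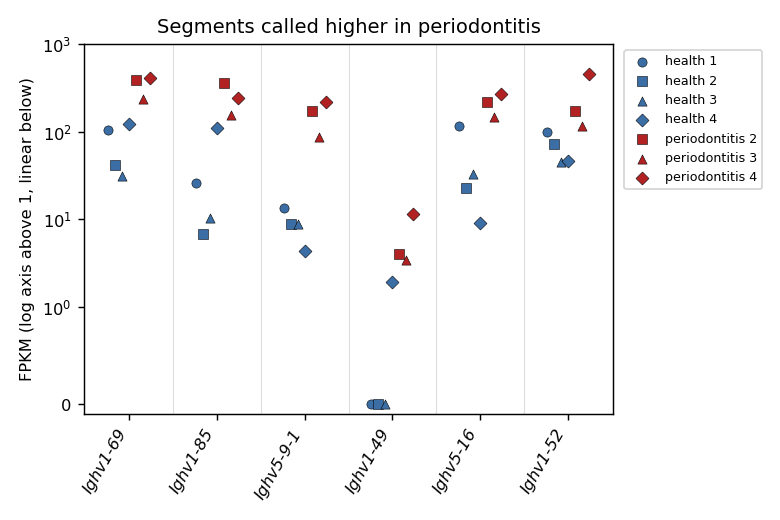
FPKM of the 6 segments called higher in periodontitis, on an axis that is logarithmic above 1 FPKM and linear below, with a point for each library. For all 6 the 3 periodontitis libraries (red) lie above the 4 health libraries (blue), with the widest gap for Ighv5-9-1 (86.0 to 216 FPKM against 4.29 to 13.6 FPKM).

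Segments are grouped into families by sequence, given by the first number of the name. The family Ighv1 has 53 of the 113 segments, or 46.9%, and took 49.0%, 50.9%, 52.9% and 47.5% of usage in health 1 to 4. It took 53.5%, 50.9% and 54.1% in periodontitis 2 to 4. The groups overlapped, with a difference of 2.75 percentage points (95% interval -1.37 to 6.86; exact permutation p = 0.114, two-sided). The families Ighv2 and Ighv5, which lie nearest to the D segments, took 8.92% ± 2.32 and 9.27% ± 2.66 in health (SD, n = 4) and 9.98% ± 3.46 and 9.21% ± 0.39 in periodontitis (SD, n = 3). Ighv9 took 12.3% of usage in health 4 and 2.48% to 5.19% in the other health libraries, and 4.27% to 4.43% in periodontitis. Ighv14 took 2.64% to 9.82% in health and 3.45% to 4.50% in periodontitis.

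Usage was spread along the locus. The 38 segments nearest to the D side took 32.3% to 37.0% of usage in health and 27.4% to 34.3% in periodontitis. The 38 in the middle took 27.1% to 38.4% and 23.9% to 32.4%. The 37 farthest took 38.4%, 28.4%, 38.9% and 33.7% in the health libraries 1 to 4 and 44.0%, 40.5% and 40.2% in the periodontitis libraries 2 to 4, with no overlap between the groups. This division was made after values had been seen and was not tested.

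Beside the lists of B lineage genes that follow, the shares over all genes tested were 5.63% called higher and 10.2% called lower. Of 16 tested genes of B cell identity, 1 was higher, 1 lower and 14 did not pass, with a median log2 value of -0.19. Blk, a kinase of B cells that IL-17-producing gamma-delta T cells also express, rose from 32.7 ± 13.0 to 124 ± 12.6 FPKM (log2 fold change 1.99; limma adjusted p = 0.00691). Bank1, an adaptor of B cell receptor signalling, fell from 23.5 ± 3.37 to 7.80 ± 2.18 FPKM (log2 fold change -1.49; limma adjusted p = 0.00331).

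Of 15 tested plasma cell genes, 3 were higher, none was lower and 12 did not pass, with a median log2 value of 0.80. Sdc1, which encodes the plasma cell surface marker CD138, rose from 3.71 ± 1.08 to 15.5 ± 8.51 FPKM (log2 fold change 1.72; limma adjusted p = 0.0117). Sec11c, a signal peptidase subunit, rose by 0.95 and Irf4, a transcription factor of plasma cells and of T cells, by 0.98 on the log2 scale. Jchain, which joins IgA and IgM units, averaged 362 ± 121 FPKM without ligature and 1258 ± 724 FPKM with it and did not pass (limma adjusted p = 0.0560). Of 12 tested constant region genes, 1 was higher and none lower, with a median log2 value of 1.12. That gene was Ighg1, at 193 ± 145 and 674 ± 229 FPKM (limma adjusted p = 0.0489). Igha, the most abundant heavy chain constant gene, was 885 to 2267 FPKM in the health group and 5148, 2450 and 8539 FPKM in periodontitis, and did not pass (limma adjusted p = 0.0880).

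Of the genes of segment joining and the surrogate light chain, Rag1 and Rag2, the recombinase that joins the segments, did not exceed 1.20 FPKM in any library. Igll1, Dntt, Vpreb2 and Vpreb1 did not exceed 0.98, 1.70, 2.78 and 5.05 FPKM. Vpreb3 was the exception, with 9.19 to 18.8 FPKM in health and 3.46 to 15.5 FPKM in periodontitis. Of the 7 genes of this list 2 were tested, with none called. Of 5 tested germinal centre genes none was higher and 1 was lower, Bcl6, a transcription factor of germinal centre B cells and follicular T cells (log2 fold change -1.24; limma adjusted p = 0.0239). The gene lists outside the B lineage differed in opposite directions. All 8 T cell genes were higher, with a median log2 fold change of 2.46, and all 10 monocyte and macrophage genes lower, with a median of -4.05. Among the former, Cd4, the T helper co-receptor, rose from 27.99 ± 0.93 to 124 ± 17.9 FPKM, and Cd247, Trac and Cd3g, parts of the T cell receptor complex, rose by 2.47, 2.64 and 2.81 on the log2 scale. Among the latter, Vcam1, Mrc1, Mertk and Slc40a1, genes of splenic macrophages, had log2 fold changes of -4.54, -4.54, -4.57 and -4.16. The part of these differences in the Ighv values was not tested.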

How the data were processed

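The deposited table gives FPKM per gene and library beside gene length, position and biotype. HISAT2 2.0.5, featureCounts 1.5.0-p3 and DESeq2 are named, with the build mm10 and without settings, per the submitters' processing notes. The strand setting is not given in the sources used here. Read length is likewise not given, and reads of like segments may be lost or split by the aligner. Values times gene length were, for 100% of those above 0, whole multiples of 1 step per library within 0.01 of a read, which gave the reads.

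Every gene averaging 1 FPKM or more entered a fit in limma 3.58.1 (R 4.3.3) on log2(FPKM + 1), a scale that understates the change of low genes, with a trend in the variance, and the threshold was 0.05. Values per library were compared by exact permutation tests over 35 arrangements, with 95% intervals from the pooled SD. Expected segment numbers are hypergeometric. Reads are not independent molecules. The fit was tested on simulated data with a common variance setting for all genes. Its performance at the wide spread of the Ighv segments was not tested.

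Groups and numbers come from the library names. The segments, lists and tests were chosen with earlier results of these data known. Named segments are the 3 leading ones of each library, those called, and those with the largest and smallest p. Ighv15-2, Ighv7-4, Ighv1-72, Ighv11-1, Ighv7-2 and Ighv16-1 were named after their values were seen. So were Jchain, Igha, Ighe, Rag1, Rag2, Igll1, Dntt, Vpreb1, Vpreb2 and Vpreb3. Of each list the members called are named, or, above 6, the 4 with the smallest p.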

Additional observations from a re-analysis of the deposited data

Results flagged for a closer look

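Of 47 values of the health libraries tested for a library far from the others, 4 stood out; chance gives about 1 in 20. For 3 of the 4 the other health libraries are all at 0, so that any value above 0 stands out, and only Ighv1-64 stood out by its size. Ighv1-64 was 204 FPKM in health 3 and 126 to 138 FPKM in the other health libraries. Ighv1-49 was 1.94 FPKM in health 4 and 0 in the others. Ighv3-3 was 8.95 FPKM in health 1 and 0 in the others. The family Ighv15, which is the single segment Ighv15-2, took 0.304% of usage in health 3 and 0 in the others.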

How the results depend on the processing

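The segments called higher numbered 6. Without single libraries they numbered 2 to 7, with no filter on low values 2, and with periodontitis 2 and 3 as 1 sample 4. The segments called lower, 0 as deposited, numbered 0 to 2 without single libraries, 1 at a pseudocount of 0.1 or without features under 200 bases, and 2 at the same total. With the library number as a replicate block, in which health 1 has no partner, 14 were called higher and 1 lower. Same-numbered libraries' deviations from their group means correlated by -0.047, -0.016 and 0.037 for numbers 2, 3 and 4, so the numbers were not taken as pairs. The sample titles number the periodontitis libraries 1 to 3 instead, and pairs by those numbers were not checked. The effective number differed by 0.29 and by -1.54 to 1.66 without single libraries. The leading share differed by 0.96 percentage points, by 0.185 to 1.88 without single libraries and by 0.439 with periodontitis 2 and 3 as 1 sample, and that of the 10 leading segments by -1.47. The signs of the summed level (0.65 to 1.42 on the log2 scale without single libraries), the family Ighv1 share and the expected segment number held in every setting run. Segments that did not pass changed sign in part. Ighv2-2 was -0.22 at the same total, -0.020 with quantile normalization and -0.64 to 0.69 without single libraries. Ighv14-3 was -0.25 to 1.24 and Ighv1-50 -0.27 to 2.35 without single libraries. Ighv1-64 was -0.42, -0.15 and -0.30 at the same total, without short features and with quantile normalization, -0.030 with the replicate block, and -0.71 to 0.56 without single libraries. Ighv3-3 was 0.21 at a pseudocount of 0.1, 0.28 with quantile normalization, 0.21 with voom, 0.81 with the replicate block, 0.013 with periodontitis 2 and 3 as 1 sample, and -0.83 to 0.81 without single libraries. The cause of these changes was not tested. The edgeR alternative and TMM scaling were not run, and voom used median-of-ratios size factors, chosen after the data were seen, as was the setting with periodontitis 2 and 3 as 1 sample.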

Other observations

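Rows of the Ighv locus annotated as pseudogenes took little of the RNA. Their 70 rows together came to 2.08 to 15.6 FPKM in the health libraries and to 16.1, 5.82 and 30.8 FPKM in periodontitis 2 to 4, at most 0.457% of the Ighv FPKM of any library. Ighv8-7 was 16.1 FPKM in periodontitis 2, 1.40 FPKM in periodontitis 3 and at most 0.849 FPKM elsewhere. Ighv3-2 was 16.8 FPKM and Ighv1-83 14.1 FPKM in periodontitis 4, and both were listed at 0 in periodontitis 2 and 3. These 3 rows are the ones with the highest mean and were chosen after values were seen.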
